A study of Mus musculus with 46 samples.

Results

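Anti-Müllerian hormone (AMH), BMP signaling and the ID genes were followed in single mouse ovarian follicles through the first hours after the ovulatory stimulus. The gene set held 10 of the 25147 genes of the deposited table, listed by name with earlier results of these data known. They were the hormone Amh, the receptors Amhr2 and Bmpr1b, the BMP antagonist Grem1, the inhibitory SMADs Smad6 and Smad7, and Id1, Id2, Id3 and Id4. The follicles came from CD-1 mice, an outbred stock, and had grown for 8 days in alginate, a gel that preserves their shape. They were then moved to a maturation medium with 1.5 IU/ml human chorionic gonadotropin (hCG, a ligand of the receptor for luteinizing hormone), 10 ng/ml epidermal growth factor, 10 mIU/ml recombinant follicle-stimulating hormone and 10% fetal bovine serum. The groups were 0 h (9 follicles), 1 h (13), 4 h (13) and 8 h (11) in that medium. Batch 1 held 10 of the follicles at 1 h, 10 of those at 4 h and all those at 8 h, while batch 2 held all those at 0 h with 3 at 1 h and 3 at 4 h. In batch 1 the 4 h libraries were on a plate of their own, and the 1 h and 8 h libraries shared another. No untreated follicles of matching times and no link from follicle to animal are given in the labels. Each comparison is therefore one of times, and its p-value reflects only how follicles differ, which may be within 1 animal.

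Receptors for AMH and for BMPs are complexes of type I and type II serine/threonine kinases. AMH binds AMHR2, its own type II receptor, while BMPR1B is a type I receptor used by BMPs and also by AMH. Both ligands lead to phosphorylation of SMAD1, SMAD5 and SMAD9, which enter the nucleus with SMAD4 and switch on targets of which the ID genes are the best known. ID proteins lack a DNA-binding domain and capture E proteins, a class of transcription factors, so that these cannot bind DNA. In the ovary AMH from granulosa cells restrains follicle growth, and the oocyte factors BMP15 and GDF9 act on the granulosa and cumulus cells around it.

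The gene starts are shown for 4 genes with a single listed start, Amhr2 and Id3, which fell, Id2, which rose, and Grem1, whose level varied with that of Id2 among follicles at 4 h. Bmpr1b, which fell furthest, has 3 listed starts and its sequence is not printed. The sequences are from RefSeq on GRCm38.p6, which listed promoters for 7 of the 10 genes. The 250 bases before the start were searched on both strands for GGCGCC (a GC-rich motif of SMAD1 and SMAD5), CAGAC (a SMAD motif), TGACG (the core of the cyclic AMP response element) and AGGTCA (the nuclear receptor monomer motif). Capitals mark the matches, on either strand. The Amhr2 stretch is chr15:102445117-102445366 (+ strand) and the Grem1 stretch is chr2:113758649-113758898 (- strand). For Id2 the 89 bases outside annotated exons are given, chr12:25096254-25096342 (- strand), and for Id3, whose window lies within an annotated exon, 30 bases around a match, chr4:136143641-136143670 (+ strand). For Id2 and Id3 these are RefSeq starts, and both windows lie inside the longer genes that GENCODE M21 annotates, so they are upstream of the start in RefSeq and not in GENCODE.
Amhr2: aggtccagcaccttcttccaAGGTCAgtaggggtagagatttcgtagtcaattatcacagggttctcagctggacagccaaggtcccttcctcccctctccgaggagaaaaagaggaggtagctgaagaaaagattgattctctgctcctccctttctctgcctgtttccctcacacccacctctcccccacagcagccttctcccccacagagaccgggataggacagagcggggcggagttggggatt
Grem1: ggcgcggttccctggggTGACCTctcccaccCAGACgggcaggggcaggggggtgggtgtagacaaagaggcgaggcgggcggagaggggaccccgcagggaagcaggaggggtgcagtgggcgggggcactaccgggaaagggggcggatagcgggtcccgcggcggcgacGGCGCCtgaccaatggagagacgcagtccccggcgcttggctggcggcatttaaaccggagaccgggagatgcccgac
Id2: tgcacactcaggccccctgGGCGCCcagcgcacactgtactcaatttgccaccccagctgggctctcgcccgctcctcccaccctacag
Id3: gctgtcctcggCGTCAGACcagcctaagga

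In the Amhr2 window AGGTCA had 1 match, beginning 230 bases before the start, and in the Id2 window GGCGCC had 1 match, beginning 231 bases before it. In the Grem1 window GGCGCC, the SMAD motif and the nuclear receptor motif had 1 match each. In the Id3 window CAGAC had 2 matches and TGACG had 1, read on the opposite strand and overlapping one of the CAGAC matches. Of the 3 Bmpr1b windows, one had a CAGAC match, one a CAGAC and an AGGTCA match, and one none of the 4 motifs. The Id4 window had 1 match each of GGCGCC and TGACG, and the Smad6 window had none of the 4. Over all 32851 RefSeq promoters searched, the share with a match was 9.59% for GGCGCC, 42.2% for CAGAC, 17.8% for TGACG and 14.0% for AGGTCA. These matches describe the letters and were not tested as binding sites.

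Total counts ranged from 241442 to 5185044 per library. By time, the median totals were 3286107, 730895, 1432395 and 1755429 (0, 1, 4 and 8 h), so low genes are measured least well at 1 h. All 6 granulosa markers on the list (Fshr, Foxl2, Cyp19a1, Inha, Nr5a2, Fst) were counted at every time, with a median summed level of 27800, 22100, 20100 and 13300 CPM (counts scaled to 1e+06 per library) at 0, 1, 4 and 8 h. The 9 oocyte markers summed to medians of 16.5, 24.0, 13.4 and 25.0 CPM. Summed theca markers had medians of 106, 78.1, 30.4 and 30.4 CPM and smooth muscle markers 142, 1190, 764 and 235 CPM in the same order. The granulosa sum is mostly Inha, with means of 27500, 22500, 19900 and 12900 CPM. The smooth muscle sum is mostly Acta2, with means of 163, 1270, 752 and 217 CPM. Actg2 also had its highest mean at 1 h (11.8 CPM), while Myh11, Cnn1 and Des averaged at most 1.04 CPM at any time. Both sums thus mainly follow a single gene. The part of these cell types in the results on the 10 genes was not tested. In RNA from whole follicles fewer cells of a type and less RNA per cell cannot be told apart. A set of 3332 genes with 0 counts in every batch 2 library after hCG held 22.6% to 46.2% of the counts at 0 h and at most 0.0667% later, which lowers every TPM value at 0 h. Differences between times therefore rest on counts scaled by TMM factors, and TPM is used to compare genes within a follicle.

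After filtering on low counts, 7 of the 10 genes were tested, with 8629 genes in all, by edgeR's quasi-likelihood F test with terms for time and batch and Benjamini-Hochberg adjustment. Amh, Id4 and Smad6 had too few counts. Calls were made where the adjusted p was below 0.05, and the background given beside each count is the share of all tested genes called. At 1 h against 0 h, 3 of the 7 were called (background 34.6%), of which Id2 was higher (background 12.4%) and Id1 and Id3 were lower (background 22.2%). At 4 h against 0 h, 6 were called (background 54.2%), with Id2 higher (21.9%) and Amhr2, Bmpr1b, Grem1, Id1 and Id3 lower (32.2%). At 8 h against 0 h, 5 were called (background 45.1%), with Id2 higher (17.5%) and Amhr2, Bmpr1b, Id1 and Id3 lower (27.6%). The median log2 fold change of the 7 genes was -0.49, -1.55 and -1.24 in these comparisons, against -0.19, -0.12 and -0.15 over all genes tested. In the joint test of all times 5 of the 7 were called, where 79.8% of all genes were. With 7 genes these counts were not tested against the background, and the description that follows rests on the direction and size of each gene's change.

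**Figure D1:**
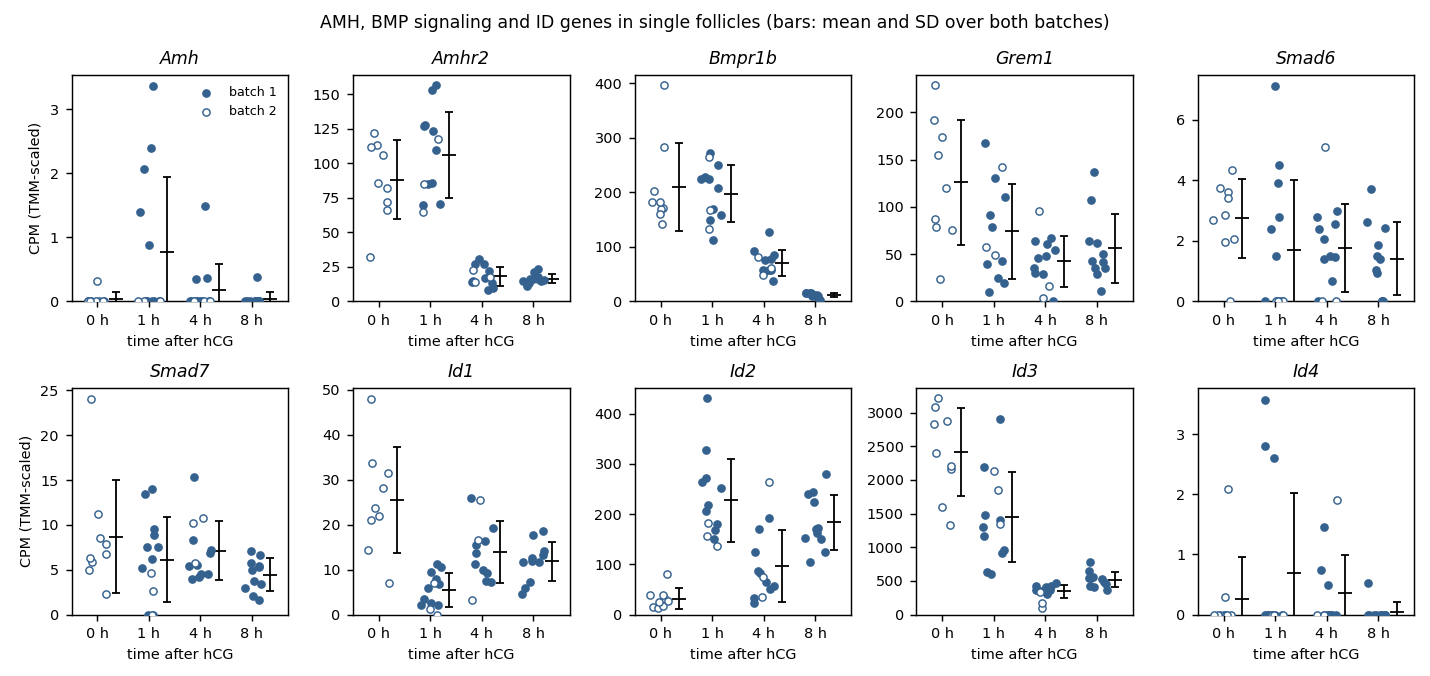
Level of each of the 10 genes in every follicle (vertical axes, TMM-scaled CPM, one scale per gene) by hours after hCG (horizontal axes), with filled points for batch 1, open points for batch 2, and bars for the mean and SD over both batches. Amhr2 lies at 8.37 to 30.7 CPM in all follicles at 4 h, below every follicle at 0 h, while Id2 at 1 h, from 136 CPM upward, lies above every follicle at 0 h.

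The ligand Amh (chr10:80805243-80807648, GRCm38, + strand) was close to undetected. Over all libraries of 0, 1, 4 and 8 h it had 1, 5, 4 and 1 counts, in 1 of 9, 5 of 13, 3 of 13 and 1 of 11 follicles. These are pooled levels of 0.0455, 0.634, 0.181 and 0.050 CPM. All counts after hCG were in batch 1, and the 6 batch 2 libraries after hCG had none, where 0 counts allow a pooled level of up to 0.509 CPM. Amh is thereby one of the 3332 genes at 0 in all of these libraries, and whether the authors' batch adjustment set its zeros was not tested. At equal depth the 1 h level was 13.9 times that at 0 h, with a 95% exact binomial interval of 1.56 to 658. Since the 1 h counts are all from batch 1 and those at 0 h from batch 2, time and batch cannot be told apart in that ratio. Fitted without the low-count filter, Amh was called in 1 comparison, 8 h against 1 h (log2 fold change -2.72 ± 0.75 (SE), edgeR adjusted p = 0.0164), which rests on 1 count against 5. Intervals and floors cover counting error only.

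The AMH receptor Amhr2 (chr15:102445367-102454633, + strand), by contrast, was counted in every follicle and was much lower at 4 h and 8 h than at the earlier times. The 0 h follicles had 32.3 to 122 CPM, with a median of 85.9. At 1 h its level ran from 69.8 to 157 CPM in batch 1, with a median of 116, and was 85.3, 118 and 64.3 CPM in the 3 batch 2 follicles. At 4 h it ran from 8.37 to 30.7 CPM in batch 1 (median 15.7) and was 14.0, 17.9 and 22.4 CPM in batch 2, and at 8 h it ran from 11.2 to 23.4 CPM (median 16). No follicle at 4 h or 8 h reached the lowest follicle at 0 h or 1 h, and the ranges at 8 h and 4 h overlapped throughout.

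The fitted log2 fold change of Amhr2 was 0.15 ± 0.26 (SE) at 1 h against 0 h, which was not called (edgeR adjusted p = 0.684). It fell by 2.42 ± 0.27 at 4 h against 0 h, a 5.34-fold lower level (edgeR adjusted p = 1.8e-10), with -2.60 ± 0.31 at 8 h against 0 h (adjusted p = 1.87e-09). The step at 4 h against 1 h was -2.56 ± 0.19 (adjusted p = 5.95e-16), with -2.58 in batch 1 alone and -2.26 in batch 2 alone. At 8 h against 4 h the difference was -0.18 ± 0.21 and was not called (adjusted p = 0.513).

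The type I receptor Bmpr1b (chr3:141837136-142169425, - strand) was also lower at 4 h, and it kept falling to 8 h, further than Amhr2. It had 142 to 396 CPM at 0 h, with a median of 181. Its levels at 1 h were 112 to 273 CPM in batch 1 (median 216) and 167, 132 and 265 CPM in batch 2. At 4 h they were 37.0 to 126 CPM in batch 1 (median 66.5) and 60.5, 81.1 and 47.4 CPM in batch 2, and at 8 h only 2.78 to 15.6 CPM, with a median of 10.7. Every follicle at 8 h lay below every follicle at 4 h, and at 4 h a single follicle, with 126 CPM, was above the lowest at 1 h.

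On the log2 scale Bmpr1b differed by -0.20 ± 0.25 at 1 h against 0 h, which was not called (edgeR adjusted p = 0.563). At 4 h against 0 h it fell by 1.69 ± 0.26 (adjusted p = 4.85e-07), and at 8 h against 0 h the change was -4.33 ± 0.33, a level 20.2-fold lower (adjusted p = 1.77e-15). That last value is a sum of differences within batches, since no batch holds both times. Of the comparisons within batch 1, 4 h against 1 h gave -1.43, 8 h against 1 h on the same plate gave -4.07, and 8 h against 4 h gave -2.64. Per gene length, the pair was close before hCG, with medians of 49.2 TPM for Bmpr1b (29.2 to 132) and 53.2 TPM for Amhr2 (16.6 to 76.4) at 0 h. At 8 h the medians were 4.15 TPM for Bmpr1b (1.01 to 6.4) and 13.3 TPM for Amhr2 (9.63 to 18.7), ranges that did not overlap. Of the 6 granulosa markers, 4 were called lower at 4 h against 0 h (background 32.2%) and all 6 at 8 h against 0 h (background 27.6%). The falls at 8 h ran from 1.15 (Inha) to 6.13 (Fshr) on the log2 scale, and at 4 h Inha and Fst were not called. The markers did not follow the pair at every step. At 1 h against 0 h Fshr and Foxl2 were called lower and Cyp19a1 higher. At 8 h against 4 h Fshr, Inha and Fst were called lower, Foxl2 was called higher (1.33, edgeR adjusted p = 0.0131), and Nr5a2 and Cyp19a1 were not called. In the falls of the pair and of these markers, loss of cells and of RNA per cell cannot be told apart.

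**Figure D2:**
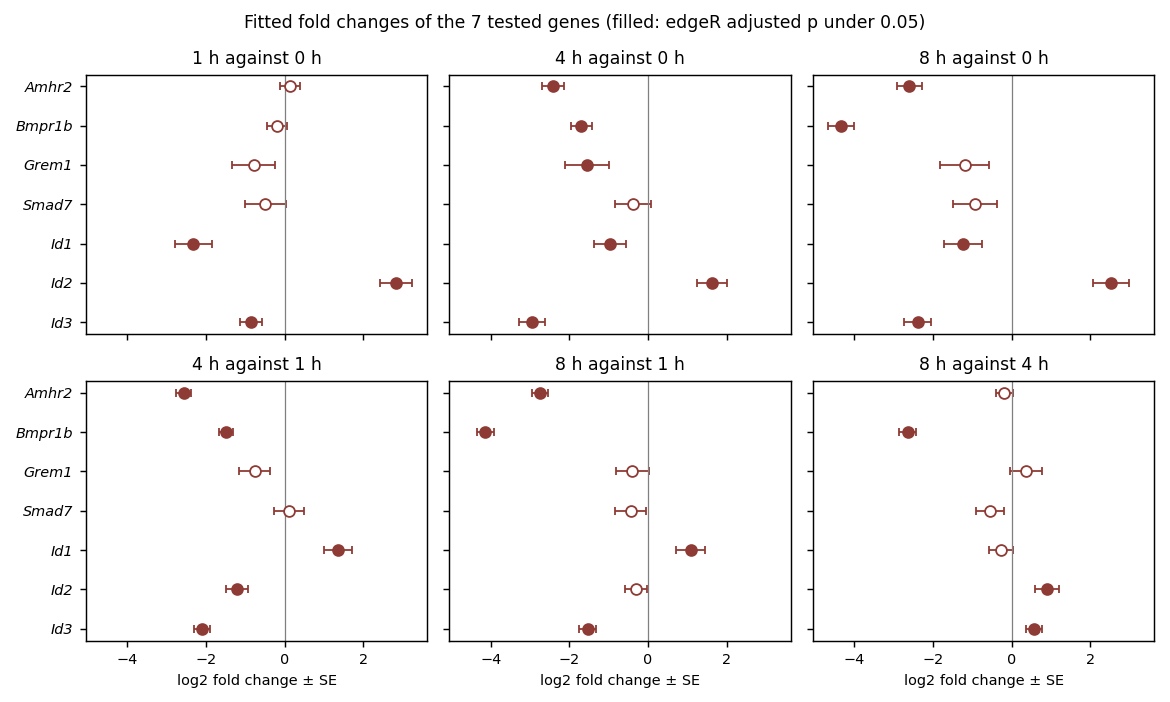
Fitted log2 fold change with its SE (horizontal axes) of the 7 tested genes in the 6 comparisons of times, with filled points for an edgeR adjusted p under 0.05. Bmpr1b moves to -1.69 at 4 h and -4.33 at 8 h against 0 h, and Id2 is the filled point to the right of zero in all 3 comparisons with 0 h.

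The antagonist Grem1 (chr2:113746164-113758646, - strand) encodes a secreted protein that binds BMPs, and it is known in cumulus cells. Its levels were widely spread, from 23.6 to 229 CPM at 0 h (median 120), and from 9.80 to 167 CPM at 1 h in batch 1 (median 60.5) and 57.3, 48.5 and 142 CPM in batch 2. They were 0 to 66.5 CPM at 4 h in batch 1 (median 47.3) and 95.6, 16 and 3.32 CPM in batch 2, and 10.5 to 137 CPM at 8 h (median 43.0). All 4 times overlapped. Grem1 fell at 4 h against 0 h by 1.55 ± 0.56 on the log2 scale (edgeR adjusted p = 0.0175), a call that was lost in 9 of 24 alternatives. Among them were batch 2 alone (-1.63, adjusted p = 0.126), no filter on low counts (-1.39, adjusted p = 0.0709), the fit without the "_ds" libraries (-1.13, adjusted p = 0.156) and the fits without 4 h replicate 12 (adjusted p = 0.0576) or 4 h replicate 13 (adjusted p = 0.0604). In the other 5 comparisons it was not called, with -0.79 ± 0.54 at 1 h and -1.19 ± 0.63 at 8 h against 0 h (adjusted p = 0.26 and 0.117).

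The inhibitory SMADs, which bind type I receptors and block the signal, were low. Smad7 had 2.29 to 24.1 CPM at 0 h (median 6.75). It had 0 to 14.0 CPM at 1 h in batch 1 (median 7.54) and 0, 4.62 and 2.68 CPM in batch 2. It had 4.00 to 15.4 CPM at 4 h in batch 1 (median 5.45) and 5.74, 10.2 and 10.8 CPM in batch 2, and 1.60 to 7.11 CPM at 8 h (median 4.91). These ranges overlapped at all times, and Smad7 was not called in any of the 6 comparisons, with -0.49 ± 0.52, -0.38 ± 0.45 and -0.93 ± 0.55 on the log2 scale at 1, 4 and 8 h against 0 h. Smad6 (chr9:63953076-64022059, - strand) averaged 2.74 ± 1.30, 1.71 ± 2.31, 1.77 ± 1.46 and 1.41 ± 1.20 CPM at 0, 1, 4 and 8 h (SD). Fitted without the filter on low counts, Smad6 was not called in any comparison, with adjusted p from 0.248 to 0.963 in edgeR.

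Id2 (chr12:25093799-25097140, - strand) was the only one of the 7 tested genes that was called higher against 0 h. It had 13.0 to 80.3 CPM at 0 h (median 27.8). Its levels at 1 h were 149 to 430 CPM in batch 1 (median 235) and 136, 157 and 182 CPM in batch 2. At 4 h they were 23.1 to 191 CPM in batch 1 (median 73.7) and 265, 75.3 and 35.7 CPM in batch 2, and at 8 h 105 to 280 CPM (median 170). All follicles at 1 h and at 8 h were above all follicles at 0 h, whereas those at 4 h spread across both.

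At 1 h against 0 h Id2 was 7.1-fold higher, a log2 fold change of 2.83 ± 0.41 (edgeR adjusted p = 3.66e-07), with 2.37 in batch 2 alone (adjusted p = 0.00625). It was higher by 1.62 ± 0.38 at 4 h (adjusted p = 0.000329) and by 2.52 ± 0.45 at 8 h (adjusted p = 9.32e-06) against 0 h. Without 4 h replicate 11 the 4 h value was 0.96 (adjusted p = 0.0337). Between the later times Id2 fell at 4 h against 1 h by 1.21 ± 0.28 (adjusted p = 0.000282) and rose at 8 h against 4 h by 0.90 ± 0.30 (adjusted p = 0.0132). The dip at 4 h was clear in batch 1 alone, at -1.40 and 1.04 for these steps, but all of its 4 h libraries were on a separate plate. In batch 2 alone 4 h against 1 h gave -0.31 (adjusted p = 0.849), and with a term for the 3 library sets (each plate and batch 2) the steps were -0.33 (adjusted p = 0.728) and -0.10 (adjusted p = 0.944), so that the dip and the plate cannot be told apart.

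Id1 (chr2:152736251-152737410, + strand) had its lowest levels at 1 h, the time at which Id2 was highest by its median. At 0 h it had 6.96 to 48.0 CPM (median 23.8). Its levels at 1 h were 2.06 to 11.2 CPM in batch 1 (median 6.36) and 1.33, 6.93 and 0 CPM in batch 2. At 4 h they were 7.18 to 25.9 CPM in batch 1 (median 12.4) and 3.19, 25.5 and 16.6 CPM in batch 2, and at 8 h 4.64 to 18.5 CPM (median 12). A single follicle at 0 h, replicate 3, was within the range of those at 1 h. The levels at 1 h rest on few counts, 42 over 13 follicles with at most 8 in any of them. In the 3 batch 2 follicles at 1 h there were 4 counts, while the 9 follicles at 0 h had 570.

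At 1 h against 0 h Id1 was 5.01-fold lower, with a log2 fold change of -2.32 ± 0.47 (edgeR adjusted p = 0.00016) and -3.20 in batch 2 alone (adjusted p = 0.0239). It was higher at 4 h than at 1 h by 1.36 ± 0.35 (adjusted p = 0.00101) and at 8 h than at 1 h by 1.08 ± 0.37 (adjusted p = 0.0127). For 4 h against 1 h batch 1 alone gave 1.19, with its 4 h libraries on a separate plate. Batch 2 alone gave 2.53 for that step, which was not called (adjusted p = 0.118). Within batch 1 and its shared plate, 8 h against 1 h gave 0.99. At 4 h and 8 h against 0 h it was called lower, with -0.97 ± 0.41 (adjusted p = 0.0415) and -1.24 ± 0.49 (adjusted p = 0.0336). The call at 4 h was lost in 16 of 23 alternatives and that at 8 h in 12 of 22. In batch 2 alone, which holds both times, 4 h against 0 h gave -0.67 (adjusted p = 0.38). With no filter on low counts the adjusted p was 0.119 at 4 h and 0.0846 at 8 h, and with RLE factors it was 0.0532 at 4 h. Both calls were also lost without any 1 of 1 h replicates 11, 12 and 13, 4 h replicate 11, 0 h replicate 1 or 8 h replicate 4, with -0.51 and -0.78 without 4 h replicate 11. Without 4 h replicate 12 the 4 h value was -1.58 (adjusted p = 0.00517).

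Id3 (chr4:136143497-136145755, + strand) had the highest level per length of the 10 genes, 1900 ± 566 TPM at 0 h (SD, n = 9), and fell mainly between 1 h and 4 h. In CPM it had 1330 to 3210 at 0 h (median 2400). Its levels at 1 h were 599 to 2900 CPM in batch 1 (median 1240) and 1340, 1850 and 2140 CPM in batch 2. At 4 h they were 298 to 463 CPM in batch 1 (median 386) and 101, 342 and 177 CPM in batch 2, and at 8 h 360 to 776 CPM (median 525). No follicle at 4 h reached the lowest at 1 h, and none at 8 h the lowest at 0 h.

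The fitted difference of Id3 at 1 h against 0 h was -0.85 ± 0.28 on the log2 scale (edgeR adjusted p = 0.0156), but -0.39 in batch 2 alone, where it was not called (adjusted p = 0.453). That call was lost in 9 of 24 alternatives, among them the fits without the "_ds" libraries (-0.54, adjusted p = 0.265), without 1 h replicate 11 (adjusted p = 0.0658) and without 4 h replicate 11 (adjusted p = 0.085). At 4 h against 0 h Id3 was 7.78-fold lower, with -2.96 ± 0.33 on the log2 scale (adjusted p = 1.22e-10) and -3.45 in batch 2 alone (adjusted p = 3.54e-05). The difference at 8 h against 0 h was -2.39 ± 0.34 (adjusted p = 1.46e-07). The step at 4 h against 1 h was -2.10 ± 0.21 (adjusted p = 5.12e-12), with -1.75 in batch 1 and -3.06 in batch 2. Id3 was higher at 8 h than at 4 h by 0.57 ± 0.21 (adjusted p = 0.0258), a call lost in batch 1 alone (0.44, adjusted p = 0.0589).

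Id4 (chr13:48261228-48266026, + strand) had 6, 5, 9 and 1 counts in all libraries of 0, 1, 4 and 8 h, and no direction was read from them. Its exons overlap those of A330033J07Rik and Gm49291 on the opposite strand, and reads from these unstranded libraries cannot be assigned to one strand.

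The balance of the family was different before and after hCG. Of the summed TPM of Id1 to Id4, Id3 made up 97.0% ± 1.56, 84.8% ± 5.32, 74.4% ± 16.2 and 72.0% ± 5.65 for 0, 1, 4 and 8 h (SD over follicles). The share of Id2 was 1.59%, 14.7%, 21.2% and 25.7% in that order. The ratio of Id2 to Id3 within a follicle ran from 0.00489 to 0.0608 before hCG and from 0.0854 to 0.302 an hour later. It then ran from 0.0655 to 2.62 (4 h) and from 0.239 to 0.608 (8 h). No follicle after hCG had a ratio as low as the highest at 0 h. In batch 2, which holds both times, the ratios at 1 h were 0.102, 0.0854 and 0.0858, all above the 0 h follicles. The ratio of 2.62 belonged to replicate 11 at 4 h in batch 2, where Id2 was 71.4% of the family, and the next highest at that time was 0.532.

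**Figure D3:**
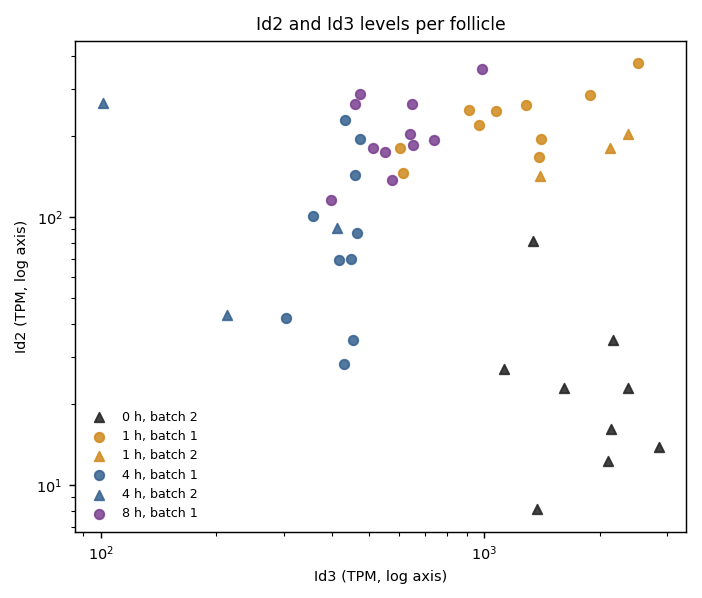
Id2 (vertical) against Id3 (horizontal) in each follicle, in TPM on log axes, with color for time and circles for batch 1 and triangles for batch 2. The 0 h follicles lie at the lower right, 1 h at the upper right, and 4 h and 8 h to the left, with replicate 11 of 4 h alone at the upper left at 101 TPM of Id3.

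The step at 4 h against 1 h was measured in both batches, and its difference between them (batch 2 minus batch 1) was tested in the 26 follicles at those times. Of the 5 genes that passed the filter there (Amhr2, Bmpr1b, Grem1, Id2, Id3), 0 were called by edgeR, where 5.09% of 5820 genes were, and 1 had an unadjusted p under 0.05. This was Id3, with -1.33 ± 0.49 on the log2 scale (p = 0.011, adjusted p = 0.112). The step itself called 5 of the 7 genes over both batches (background 54.8%), which were Amhr2, Bmpr1b, Id2 and Id3 lower (28.9%) and Id1 higher (26%). At 8 h against 1 h, with both batch 1 groups on the same plate, 4 of the 7 were called (background 49.1%), Amhr2, Bmpr1b and Id3 lower (25.9%) and Id1 higher (23.2%). At 8 h against 4 h 3 were called (background 41.3%), Id2 and Id3 higher (19.8%) and Bmpr1b lower (21.6%).

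Follicles of the same time differed widely in Grem1, which had the highest SD of the 7 genes at 0 h, 4 h and 8 h. At 1 h Smad7 was level with it in batch 1 (1.30), and in batch 2 Id1 (1.35) and Smad7 (1.14) were above it (0.821). The SD of log2 CPM of Grem1 was 0.98 at 0 h and 1.29, 1.70 and 0.95 at 1, 4 and 8 h in batch 1, where the median over all genes tested was 0.46, 0.56, 0.46 and 0.39. The 1.70 at 4 h rests largely on replicate 10, which had 0 counts of Grem1 and lay at -4.694 from the mean of its group. The other batch 1 follicles at 4 h lay from -0.143 to 1.033, and the SD without replicate 10 was not computed. Id3 at 4 h was among the evenly expressed genes in batch 1, with an SD of 0.18, although in batch 2 at that time it was 0.87. Among the 21 pairs of the 7 tested genes, deviations from the mean of the same time were compared across the 31 batch 1 follicles. Grem1 and Id2 varied together, with Pearson's r = 0.60 (permutation p = 0.00042, adjusted over 21 pairs p = 0.00882) and Spearman's rho = 0.58 (permutation p = 0.00075, adjusted p = 0.0157), two-sided with 100000 resamples within times. No other pair had an adjusted p under 0.05. Leaving out the 2 follicles farthest from the median of Grem1 gave r = 0.45.

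The pair was picked from the 21 on these follicles, so its values by time in batch 1 are given as a description, and the difference between times was not tested. At 4 h rho was 0.95 and r was 0.74 over 10 follicles, and r was 0.84 without the 2 follicles farthest in Id2. At 1 h rho was 0.28 over 10 follicles and at 8 h 0.49 over 11. At 0 h, in batch 2, rho was -0.53 over 9 follicles (exact permutation p = 0.148) and r was -0.77 (exact permutation p = 0.016, adjusted over 4 times p = 0.032), which moved to -0.43 without the 2 farthest follicles. The follicle lowest in both genes at 4 h, replicate 10 with 0 counts of Grem1, had the smallest library, 241442 counts. Depth and the mix of cells in each follicle were not tested as sources of this relation.

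**Figure D4:**
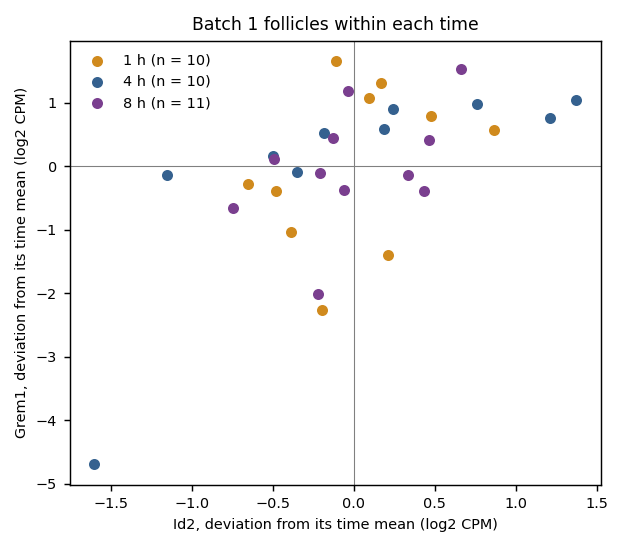
Deviation of Grem1 (vertical) and of Id2 (horizontal) from the mean of the same time, in log2 CPM, for the 31 batch 1 follicles, colored by time. The blue points of 4 h rise together (rho = 0.95), with replicate 10 alone at the lower left, while the points of 1 h and 8 h are more scattered.

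Genes with the most similar levels across the 31 batch 1 follicles were listed by Spearman's rho of log2 CPM, at most 3 of them for each tested gene. They share libraries, depth and the time course itself, so rho is a description only. For Bmpr1b they were Egr2 (0.95), Tanc2 (0.95) and Bmpr2 (0.94), for Amhr2 Sgce (0.88), Glod4 (0.86) and Pdia3 (0.84), and for Id3 Hadh (0.91), Tcaf1 (0.90) and Akr1c14 (0.90). For Id2 they were Atp5h (0.77), Tmem135 (0.76) and Hadh (0.75), and for Id1 Arpc5 (0.77) and Clca3a2 (0.72). Grem1 reached no more than 0.61 (Adipor2) and Smad7 no more than 0.67 (Pus10). Within times the values were lower for Bmpr1b with Bmpr2 (0.53) and for Id3 with Hadh (0.43).

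Of 81 further genes of the pathway, 38 were tested, and the numbers called higher and lower were 9 and 4 at 1 h, 10 and 10 at 4 h and 7 and 11 at 8 h against 0 h. Over all genes tested, 12.4% were called higher and 22.2% lower at 1 h, 21.9% and 32.2% at 4 h, and 17.5% and 27.6% at 8 h, and the counts by list that follow stand beside these shares. Among 19 genes on the ligand list 4 were tested, among them Bmp1, which encodes a secreted protease and not a ligand. Of the 4 only Bmp2 was called higher against 0 h. Ligands below the filter were not tested, and some had higher and some lower mean levels at 4 h and 8 h than at 0 h. Bmp2 averaged 193 ± 88.9, 892 ± 427, 982 ± 478 and 258 ± 132 CPM at 0, 1, 4 and 8 h (SD). Its fitted log2 fold changes were 2.10 ± 0.34 at 1 h and 2.21 ± 0.37 at 4 h against 0 h (edgeR adjusted p = 4.05e-06 and 2.22e-06), and it was lower at 8 h than at 4 h by 1.94 on that scale.

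Receptors and co-receptors beyond Amhr2 and Bmpr1b moved in both directions. Of 8 tested, 2 were called higher and 4 lower at 4 h against 0 h, and 2 and 3 at 8 h against 0 h. Bmpr2, the type II BMP receptor that pairs with BMPR1B, fell by 1.58 ± 0.20 at 4 h and by 3.28 ± 0.24 at 8 h against 0 h (edgeR adjusted p = 5.13e-09 and 6.3e-16). Tgfbr3, a co-receptor also called betaglycan, fell by 3.16 at 4 h and by 3.74 at 8 h. The co-receptor Rgmb moved the other way, with 0.831, 4.93, 29.3 and 12 CPM at 0, 1, 4 and 8 h, a log2 fold change of 4.92 ± 0.49 at 4 h (adjusted p = 5.46e-12). Tgfbr1, a receptor of TGF-beta and not of BMPs, rose by 1.27 at 4 h and 1.63 at 8 h.

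Of 15 listed extracellular antagonists and modulators 6 were tested, of which 2 rose at 1 h, 2 rose and 1 fell at 4 h, and 1 rose and 2 fell at 8 h against 0 h. Chrd, a BMP antagonist named after its values were seen, was below the filter and not tested. It averaged 114 ± 228 CPM (SD) at 0 h and 0.457, 0.0919 and 0.402 CPM at 1, 4 and 8 h. The rises at 1 h were those of Nbl1, a BMP antagonist, by 1.48 ± 0.54 on the log2 scale, and of Fstl1, by 1.57 ± 0.57 (edgeR adjusted p = 0.0297 and 0.0286). Twsg1, which encodes a secreted modulator that binds BMPs, fell by 1.12 ± 0.21 at 4 h and by 1.04 ± 0.23 at 8 h (adjusted p = 1.06e-05 and 0.000276). Bmper, which binds BMPs outside the cell, rose by 4.68 ± 0.47 at 4 h and 5.31 ± 0.55 at 8 h against 0 h (adjusted p = 8.39e-12 and 4.96e-11), to 64.3 and 100 CPM against 2.57 CPM. Htra1, a secreted protease, rose at 4 h by 0.93 ± 0.36 (adjusted p = 0.0273). Fst, which encodes follistatin, an antagonist of activin, fell at 8 h by 2.28 ± 0.52.

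Of 7 SMADs and partners, 1 rose and 2 fell at 1 h, 1 rose and 2 fell at 4 h, and 2 rose and 3 fell at 8 h against 0 h. Runx2, a transcription factor that binds SMADs, rose most, by 4.46 ± 0.49 at 4 h and 6.73 ± 0.55 at 8 h against 0 h (edgeR adjusted p = 1.03e-10 and 3.92e-14). Smad2 fell at 1 h and 8 h, by 1.90 and 1.79, and Smad4 at 4 h and 8 h, by 0.87 and 1.42. Smad5, one of the SMADs that AMH and BMP receptors phosphorylate, fell by 1.10 ± 0.33 at 1 h and by 0.98 ± 0.36 at 8 h (adjusted p = 0.00842 and 0.0229), with -0.63 ± 0.31 at 4 h, which was not called (adjusted p = 0.0761). Tob1, which encodes an antiproliferative protein, rose by 1.07 ± 0.40 at 1 h and fell by 1.30 ± 0.39 at 4 h (adjusted p = 0.0349 and 0.00407). Smad3, which carries TGF-beta and activin signals, rose by 0.82 ± 0.29 at 8 h (adjusted p = 0.0184).

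Of 8 intracellular inhibitors 2 rose at 1 h, 4 rose and 1 fell at 4 h, and 2 rose and 2 fell at 8 h against 0 h. Skil and Tgif1, both SMAD corepressors, rose at 1 h by 2.67 ± 0.30 and 1.79 ± 0.24 (edgeR adjusted p = 7.81e-10 and 8.52e-08). Tgif1 and Fkbp1a, whose product binds type I receptors, rose at 4 h by 3.25 and 1.99 and at 8 h by 2.09 and 1.52. Ppm1a, a phosphatase that acts on SMADs, fell by 1.66 ± 0.40 at 4 h and by 1.83 ± 0.47 at 8 h (adjusted p = 0.000457 and 0.00131). Bambi, a decoy receptor, fell at 8 h by 1.21 ± 0.39 (adjusted p = 0.0106). Of 3 E proteins that ID proteins capture, Tcf4 fell at 1 h by 1.16 ± 0.30 and at 4 h by 1.56 ± 0.31 (adjusted p = 0.00234 and 2.91e-05), and Tcf3 and Tcf12 were not called against 0 h. Of 3 tested genes listed as further BMP targets, one was Bambi, which stands on both lists. Hey2, a transcriptional repressor, fell, with -2.04, -3.79 and -3.93 at 1, 4 and 8 h against 0 h. Cdh5, also on the endothelial list, rose at 1 h by 1.98 ± 0.67 (adjusted p = 0.0196). The summed endothelial markers had medians of 30.2 CPM at 1 h and 9.81 CPM at 0 h, but Cdh5 itself is most of that sum. Of the other markers on that list, Pecam1 (3.83 against 1.69 CPM) and Emcn (1.11 against 0.978 CPM) had higher means at 1 h than at 0 h. Lower means at 1 h were those of Kdr (0.64 against 1.27 CPM), Flt1 (1.63 against 2.1 CPM) and Tek (0.0852 against 0.13 CPM).

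**Figure D5:**
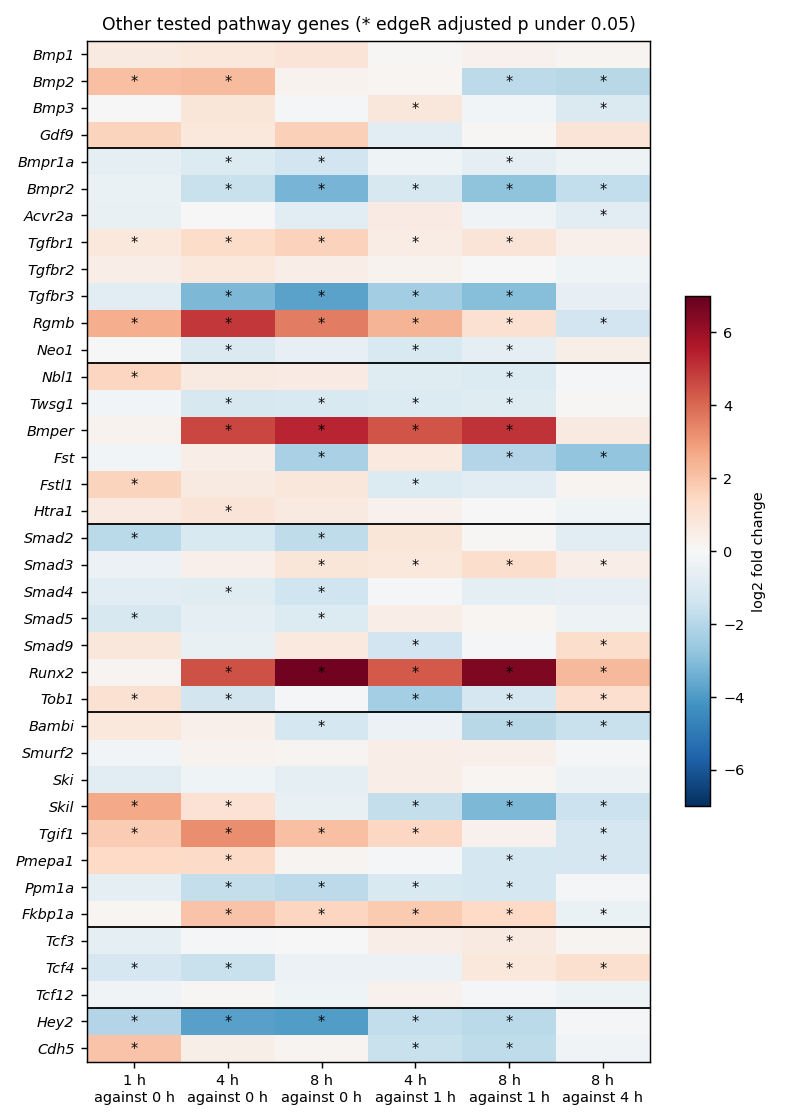
Fitted log2 fold change (color, red for higher and blue for lower in the later time) of the 38 tested pathway genes other than the 10 described first, in the 6 comparisons of times, with a star for an edgeR adjusted p under 0.05 and lines between the lists. Rgmb, Bmper and Runx2 are the deep red rows at 4 h and 8 h, with 4.92, 4.68 and 4.46 at 4 h against 0 h, and Bmpr2, Tgfbr3 and Hey2 are blue at both times.

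In the authors' deposited table, in which each later time is set against 0 h, the signed fold of Bmpr1b at 8 h was -18.9, that of Id3 at 4 h -7.1 and that of Id2 at 1 h 6.74. For Smad7 and Grem1 at 8 h the authors' deposited table gave unadjusted p-values of 0.00604 and 0.00614 with signed folds of -1.98 and -2.26.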

How the data were processed

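Polyadenylated RNA of 46 single follicles was amplified with Smart-Seq2, and unstranded Nextera XT libraries were sequenced, per the labels' protocols. Per the submitters' processing notes, HISAT2, GRCm38, Partek and DESeq2 were used, with versions not given. The authors' deposited count table (25147 genes) had been adjusted between batches with ComBat-seq, and the deposited TPM table (25122 genes) was computed from the adjusted counts, per the names of the files. How that adjustment moved single genes was not tested. In the authors' deposited comparisons with 0 h, p-values and signed fold changes (a score in which a fall is written as minus the inverse ratio) were used, per the file headers. Each of the count and TPM tables has 10 columns that fit no sample description, and these were left aside. The meaning of "_ds", which marks 5 of the 9 libraries at 0 h, is not given in the sources used here. No pair of libraries was identical.

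Counts entered edgeR 4.0.16 (R 4.3.3) whole, in a fit with all libraries (TMM factors, filterByExpr, quasi-likelihood F test, terms for time and batch, Benjamini-Hochberg adjustment, threshold 0.05), after a check on simulated data. The biological coefficient of variation was 34%. The SE is the size of the log2 fold change divided by the square root of F. CPM used TMM-scaled library sizes, and log2 CPM a prior count of 2. No batch holds 8 h and 0 h together, so that comparison sums differences within batches. Tests were edgeR F tests and two-sided permutation tests for correlations. Below the filter, Amh was given as pooled counts with a 95% exact binomial interval, without a batch term. Id4 was given as pooled counts and Smad6 as mean CPM with SD. Each was also fitted without the low-count filter.

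The 10 genes, the pathway and marker lists and the alternatives were chosen with earlier results of these data known. Named genes were the 10, the 3 most similar genes for each tested one, and up to 2 called rises and 2 called falls for each pathway list and comparison, of which those against 0 h are described. Bmp1 and Chrd were named outside this rule. A pathway gene and a similar gene that this rule would also name are not reported here. Alternatives were RLE factors, no low-count filter, no batch term, a library set term, a replicate block, DESeq2 1.42.0, no "_ds" libraries, removal of the 3332 genes described above, limma 3.58.1 on log2(TPM + 1) or log2(TPM + 0.1), single batches, and leaving out single libraries. Chosen after seeing the data were thinning to 241442 counts, rescaled TPM and fits without replicate 1 or replicate 3 of 0 h, replicate 10 of 4 h or replicate 4 of 8 h. Gene positions are from GENCODE M21 (GRCm38).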

Additional observations from a re-analysis of the deposited data

Results flagged for a closer look

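In each group of 4 to 10 follicles of one time and batch, the 7 tested genes were examined for a follicle far from the others by Dixon's criterion, 21 groups in all, of which 3 held one. The 8 h follicles, 11 in number, were outside that range and were not examined. For normally distributed values chance alone gives about 1 in 20. CPM of low genes need not be so distributed, so that rate is only a rough guide.

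Id2 in replicate 3 at 0 h was 80.31 CPM, where the next follicle had 38.43 CPM and the median was 27.81 CPM. Smad7 in the same follicle was 24.09 CPM, with the next at 11.25 CPM and a median of 6.748 CPM. The same follicle had the highest Bmpr1b (396 CPM) and the lowest Grem1 (23.6 CPM), Id1 (6.96 CPM) and Id3 (1330 CPM) of its time. Without it, Bmpr1b at 1 h against 0 h moved to 0.06 and Smad7 at 4 h against 0 h to 0.08 on the log2 scale, and neither was called with or without it. Smad7 in replicate 10 at 4 h in batch 1 was 15.4 CPM, with the next at 8.37 CPM and a median of 5.454 CPM. That value is 4 counts in the library with the smallest total (241442 counts).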

How the results depend on the processing

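Of 993 alternative values for the 42 fold changes of the 7 tested genes, 917 kept their direction and their side of the threshold, 53 lost the call, 5 gained one and 18 changed sign. None of the 18 was past the threshold. The rise of Id2 and the fall of Id1 at 1 h, the falls of Amhr2, Bmpr1b and Id3 at 4 h and 8 h and the rise of Id2 at 8 h, all against 0 h, kept their calls in every alternative in which the gene was tested. At 1 h against 0 h these were 24 for Id2 and 23 for Id1. Id1 did not pass the filter after thinning, so its fall at 1 h was not tested at equal depth. The causes of the changes that follow were not tested.

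Sign changes, on the log2 scale, were as follows. With the library set term, Smad7 at 4 h against 0 h was 0.057 and Id2 at 8 h against 4 h was -0.10, and the genes called were 2054 at 4 h against 1 h and 1446 at 8 h against 4 h (main 4733 and 3567). With the replicate block, Amhr2 and Grem1 at 1 h against 0 h were -0.011 and 0.546 and Grem1 at 8 h against 0 h 0.16, the calls of Grem1 (-0.22, adjusted p = 0.933) and Id2 (2.47, adjusted p = 0.0767) at 4 h against 0 h were lost, and the genes called were 355, 1479 and 852 at 1, 4 and 8 h against 0 h (main 2985, 4673 and 3892). The numbers did not pair the follicles: of 30 pairs of groups' same-numbered follicles 5 correlated above 0.1 (range -0.20 to 0.22), and 2 of 31 follicles correlated best with their own number. On log2(TPM + 1) Bmpr1b at 1 h against 0 h was 0.26 and Smad7 at 4 h against 0 h 0.081, with or without the filter, and on log2(TPM + 0.1) these were 0.26 and 0.024 and Smad7 at 8 h against 1 h was 0.45. In batch 2 alone Smad7 at 4 h against 0 h was 0.13. The genes called there were 1879 at 1 h against 0 h and 1242 at 4 h against 1 h, where 3 of the 7 were called. Amhr2 at 1 h against 0 h was -0.001 after thinning and -0.03 on rescaled TPM. Leaving out single libraries gave -0.047 to 0.153 for Smad7 at 4 h against 1 h, -0.641 to 0.082 for Smad7 at 4 h against 0 h and -0.37 to 0.06 for Bmpr1b at 1 h against 0 h.

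After thinning, with 3280 genes tested, 889, 1702 and 1417 genes were called at 1, 4 and 8 h against 0 h, 1957 at 4 h against 1 h, 1850 at 8 h against 1 h and 1447 at 8 h against 4 h. On rescaled TPM 4851 were called at 1 h against 0 h, 671 higher and 4180 lower, where the main fit called 1071 higher and 1914 lower and log2(TPM + 1) 1926 and 2058. At 8 h against 1 h log2(TPM + 1) called 3594 higher and 1550 lower (main 2003 and 2236), with medians over all genes of 0.22 and -0.02. Amh, Id4 and Smad6 had few counts at these totals. Fitted without the low-count filter, they were called in no comparison other than Amh at 8 h against 1 h. Whether depth or their level limits them was not tested.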
